A study of Mus musculus with 7 samples.

Results

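Transcripts of 33 genes of sugar metabolism were followed in neural stem and progenitor cells (NSPCs) of the adult mouse hippocampus and in the tissue they come from. The genes were taken by symbol from a list: 2 glucose transporters, 9 genes of upper glycolysis, 7 of lower glycolysis, 4 of lactate metabolism, 5 of mitochondrial pyruvate entry and 6 of the pentose phosphate pathway. All 33 were found among the 50600 entries of the bulk gene table and among the 15536 genes of the single-cell table. The bulk groups were 4 primary NSPC cultures from the dentate gyrus (DG) of C57Bl6J mice aged 6 to 8 weeks (male M1 and M2, female F1 and F2, passages 6 to 15) and 2 whole DGs from mice of the same strain aged 7 to 9 weeks (female F1, male M2). The cultures were kept on coated plates without serum, with epidermal growth factor and basic fibroblast growth factor at 20 ng/ml each, and no group carried an engineered allele. For single-cell sequencing, equal numbers of cells from 3 cultures (2 female, 1 male; mice aged 6 to 9 weeks, passages 6 to 15) were combined, and a cell cannot be traced to its culture.

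Glycolysis splits glucose into pyruvate in the cytosol: hexokinases trap the sugar, phosphofructokinases set much of the pace, and enolase and pyruvate kinase close the route. Pyruvate is then reduced to lactate by lactate dehydrogenase and exported, or taken into mitochondria by the pyruvate carrier and oxidised by pyruvate dehydrogenase. The pentose phosphate pathway branches off at glucose 6-phosphate, and yields NADPH for biosynthesis and redox defence and ribose 5-phosphate for nucleotides. Neural stem and progenitor cells are known for active glycolysis and lipid synthesis, while adult neurons rely strongly on oxidative metabolism.

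The libraries differed in more than their source. Total gene counts were 9917697 to 11747408 in cultures and 16676618 and 17351636 in whole DG, and each group had its own library kit, so that the kit cannot be told apart from the source. Whole DG is a mixture: 10 neuronal markers summed to 769 to 953 CPM (normalised counts per 1000000) in cultures, of which Map2 made up 817 CPM on average, and to 12459 and 13390 CPM in whole DG, and all 10 were lower in cultures. Of 8 markers each, 4 of astrocytes, 7 of oligodendrocytes, 8 of microglia and 8 of endothelium were lower in cultures, as were 5 of 6 mural markers, with C1qa, Aif1 and Cldn5 at 0 counts in all 4 cultures. Of the other 4 astrocyte markers, Aldh1l1 was higher, at 288 ± 192 CPM in cultures and 49.1 ± 3.58 CPM in whole DG (SD, n = 4 and 2), and Gja1, Fgfr3 and Agt were not called. Summed levels in cultures and in whole DG were 339 to 851 against 3052 to 3494 CPM for astrocytes, 93.4 to 143 against 1275 to 1565 CPM for oligodendrocytes, 38.3 to 58.5 against 346 to 356 CPM for microglia, 4.48 to 8.34 against 161 to 164 CPM for endothelium and 2.73 to 17.3 against 91.2 to 111 CPM for mural cells. Of 10 NSPC markers, 7 including Nes and Vim were higher and 3 (Sox2, Hes5 and Prom1) were lower in cultures, and all 10 division markers were higher, with sums of 1385 to 2488 CPM in cultures and 93 to 95.7 CPM in whole DG. In these bulk samples, fewer cells of a type and less RNA per cell cannot be told apart, and the part of cell mixture in the differences below was not tested.

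Upstream windows of 4 genes are shown as examples, which are not all extremes of the contrast. In log2 (cultures minus whole DG), Pgls (3.13) and G6pdx (2.99) rose more than Ldha (2.80) and Eno1 (2.40). Slc2a3 (-3.90) and Pfkl (-3.13) fell more than Pdk1 (-2.79). The windows shown are those of Ldha and Eno1, among the larger rises in cultures, and of Eno2 and Pdk1, among the larger falls. Each is the 250 bases before the first listed RefSeq start on GRCm38.p6, read 5′ to 3′ on the strand of the gene. Capitals mark the letters ACGTG or GCGTG on either strand (CACGT or CACGC when read from the other strand), the core bound by hypoxia-inducible factors. ACGTG and its reverse overlap in CACGTG, the E-box bound by MYC.
The windows are chr7:46845554-46845803 on the plus strand for Ldha, chr4:150236458-150236707 on the plus strand for Eno1, chr6:124769674-124769923 on the minus strand for Eno2 and chr2:71872974-71873223 on the plus strand for Pdk1.
Ldha: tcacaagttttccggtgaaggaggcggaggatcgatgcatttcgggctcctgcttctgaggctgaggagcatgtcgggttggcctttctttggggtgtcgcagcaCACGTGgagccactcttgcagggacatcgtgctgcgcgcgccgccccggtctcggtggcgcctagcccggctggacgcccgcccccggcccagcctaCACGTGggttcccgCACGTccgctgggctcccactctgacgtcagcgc
Eno1: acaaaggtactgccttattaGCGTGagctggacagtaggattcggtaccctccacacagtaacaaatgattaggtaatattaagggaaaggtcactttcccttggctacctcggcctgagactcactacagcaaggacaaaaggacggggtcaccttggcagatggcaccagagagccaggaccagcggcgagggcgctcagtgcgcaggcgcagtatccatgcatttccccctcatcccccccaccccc
Eno2: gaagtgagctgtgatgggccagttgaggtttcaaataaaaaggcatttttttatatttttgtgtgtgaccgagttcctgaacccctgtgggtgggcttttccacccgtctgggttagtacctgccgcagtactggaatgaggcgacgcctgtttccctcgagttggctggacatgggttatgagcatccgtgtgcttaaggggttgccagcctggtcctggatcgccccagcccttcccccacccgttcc
Pdk1: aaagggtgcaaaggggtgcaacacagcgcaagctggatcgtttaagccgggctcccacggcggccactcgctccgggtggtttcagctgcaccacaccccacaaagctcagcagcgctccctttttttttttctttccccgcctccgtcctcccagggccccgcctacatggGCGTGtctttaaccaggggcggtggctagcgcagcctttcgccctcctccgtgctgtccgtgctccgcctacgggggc
Ldha carried 5 overlapping matches on 2 copies of CACGTG and 1 further CACGT, while Eno1 and Pdk1 carried 1 match each and Eno2 carried 0. A match was present in 25 of the 32 members found in the table (78.1%), in 12 of the 13 members higher in cultures, 7 of the 12 lower ones and 6 of the 7 not called. The same letters were in 54.8% of the windows of 11804 tested genes and in 38.6% of all 27025 windows, and CACGTG itself was in 3 of the 32 (9.38%) and in 8.1% of the tested genes. Ldha carried the most matches of any member. Pgls, G6pdx and Pfkl carried 1 each, and Pfkp and Pfkm, both lower in cultures, carried 3 and 2. A match is a description of letters and no evidence of binding.

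Between cultures and whole DG, 26 of the 33 members passed the test (edgeR quasi-likelihood test, Benjamini-Hochberg adjusted p below 0.05), 13 higher and 13 lower in cultures. The same test called 77.3% of all 18088 genes tested, 35.6% higher and 41.7% lower, so the number of members called is close to the background. All 7 called members of upper glycolysis were lower in cultures, 5 of 6 pentose phosphate members were higher, and lower glycolysis held 3 higher and 2 lower members. CPM values of the groups did not overlap in 29 of the 33 members, against 83.6% of all genes tested. The median log2 difference was 0.16 over the members and -0.13 over all genes tested, and other scalings moved the median of all genes to between -0.23 and 0.05, so that small differences depend on the scaling.

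**Figure D1:**
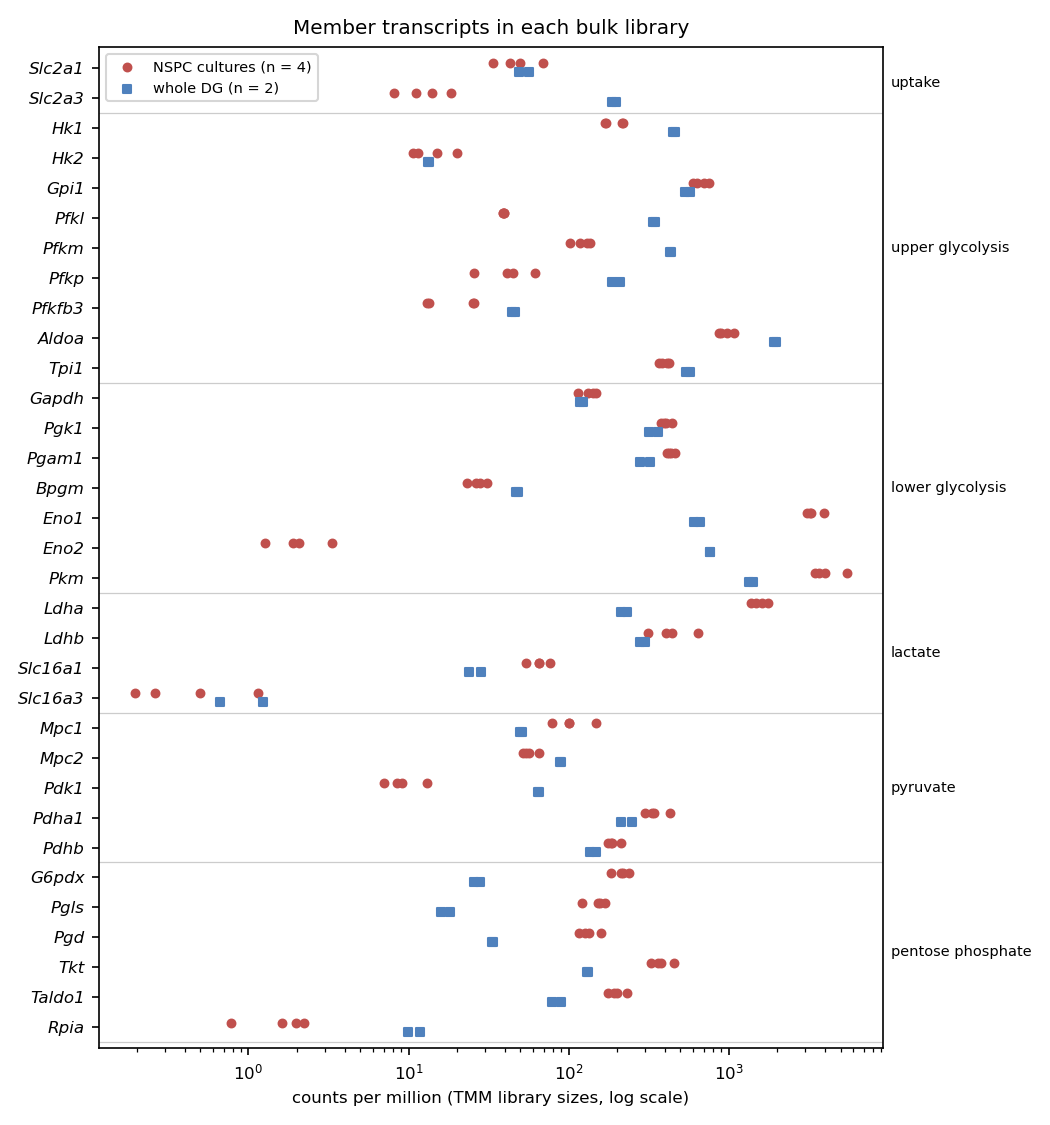
CPM of each member (log axis) in 4 NSPC cultures (circles) and 2 whole DG libraries (squares), grouped by step of the pathway. Pentose phosphate members other than Rpia lie to the right of whole DG in all 4 cultures, and the phosphofructokinases lie to the left.

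**Figure D2:**
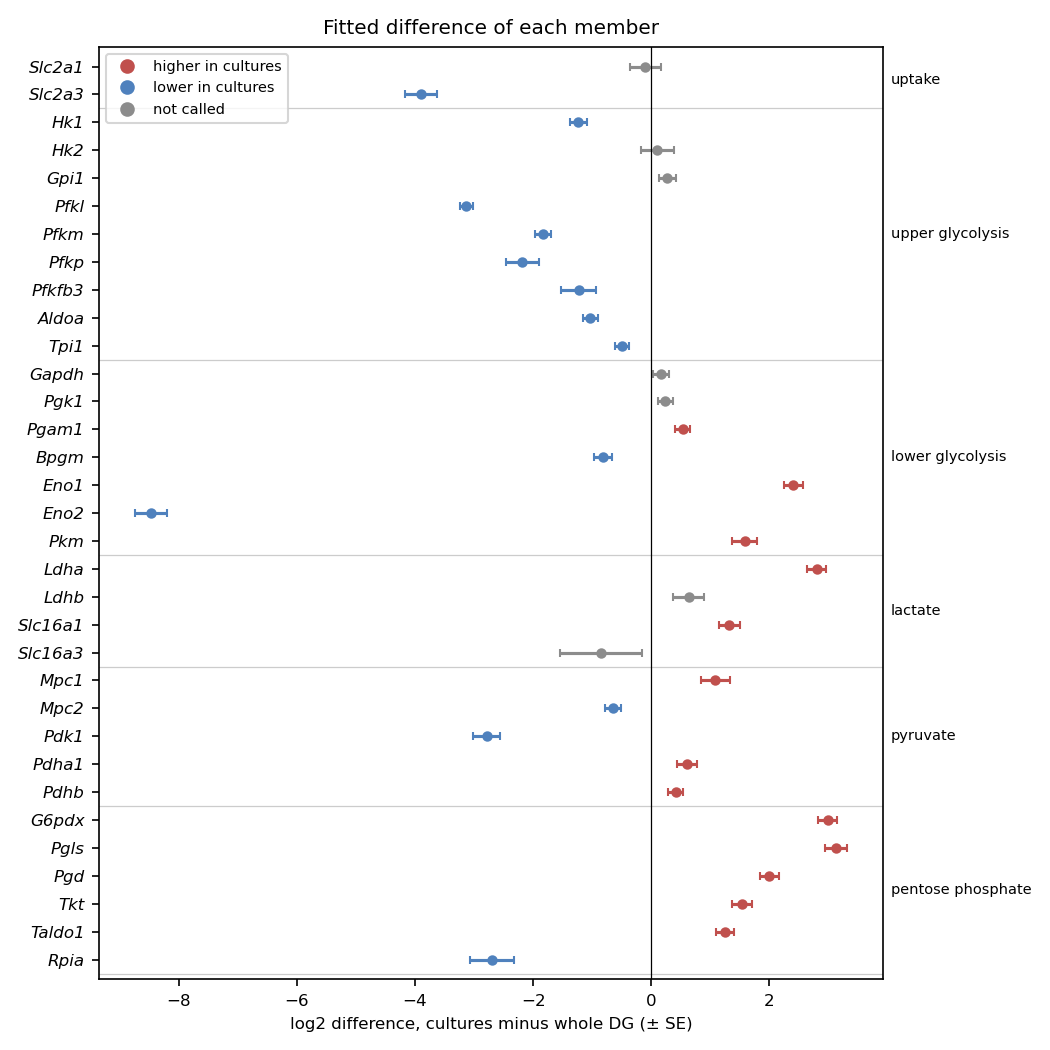
Fitted log2 difference of each member, cultures minus whole DG, with its standard error. Colours mark the 13 members higher, the 13 lower and the 7 not called, and values run from -8.47 for Eno2 to 3.13 for Pgls.

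Glucose enters brain cells through facilitative transporters. Slc2a3, the high-affinity transporter GLUT3 that is typical of neurons, had 18.3, 14.03, 11.1 and 8.09 CPM in cultures F1, F2, M1 and M2, against 198 and 187 CPM in whole DG F1 and M2. All 4 cultures lay far below both tissues, and the fitted log2 difference was -3.90 (SE 0.27, edgeR adjusted p = 3.9e-06; log2 differences below are given ± SE). Slc2a1, the transporter GLUT1 of endothelium, glia and many dividing cells, had 43.1, 49.6, 33.9 and 69.6 CPM in cultures, against 56.4 and 48.7 CPM in whole DG. Its groups overlapped and it did not pass the test (log2 difference -0.10 ± 0.26, edgeR adjusted p = 0.74), and the sign turned with upper quartile scaling (0.079). Within a library the log2 ratio of Slc2a1 to Slc2a3 counts averaged 1.94 ± 0.81 in cultures (SD, n = 4) and -1.88 ± 0.09 in whole DG (SD, n = 2). Per exon length, Slc2a1 made up 88.0% ± 4.9 of the summed level of both transporters in cultures and 36.0% ± 1.4 in whole DG (SD, n = 4 and 2).

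The hexokinases and phosphofructokinases, which commit glucose to the pathway, were lower in cultures or did not pass the test. Hk1, the hexokinase of most brain cells, had 169.6, 172, 220.1 and 214 CPM in cultures, against 462 and 452 CPM in whole DG, a log2 difference of -1.24 ± 0.15 (edgeR adjusted p = 8.8e-05). Hk2, the inducible hexokinase of muscle, fat and many tumours, stood at 20.1, 11.4, 10.7 and 15.1 CPM in cultures and at 13.2 and 13.5 CPM in whole DG. Hk2 overlapped between the groups (log2 difference 0.10 ± 0.28, edgeR adjusted p = 0.75), and Hk1 exceeded it in every library. By length, Hk2 was 9.69% ± 3.4 of both hexokinases in cultures and 4.01% ± 0.12 in whole DG (SD, n = 4 and 2).

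All 3 phosphofructokinase subunits fell in cultures. Pfkl, the liver-type subunit, had 38.9, 39.4, 39.3 and 38.9 CPM in cultures, against 338 and 346 CPM in whole DG. The coefficient of variation of the 4 cultures was 0.69%, the lowest of the members. At 399 to 471 counts per culture this is below counting error, so it does not mark Pfkl as unusually even. The log2 difference was -3.13 ± 0.10 (edgeR adjusted p = 1.3e-07). Pfkm, the muscle-type subunit, had 103, 119, 131 and 136 CPM in cultures, against 439 and 429.9 CPM in whole DG (log2 difference -1.83 ± 0.14, edgeR adjusted p = 6.4e-06). Pfkp, the platelet-type subunit, had 62.0, 41.2, 45.2 and 25.8 CPM in cultures, against 209 and 187 CPM in whole DG (log2 difference -2.18 ± 0.28, edgeR adjusted p = 1.4e-04). Pfkm was the leading subunit per length in both groups, with 79.8% ± 3.9 of the 3 subunits in cultures and 66.4% ± 0.23 in whole DG, and Pfkl held 12.9% ± 1.0 in cultures and 26.1% ± 0.75 in whole DG (SD, n = 4 and 2). With length and GC trends removed, the differences of Hk1, Pfkl and Pfkp shrank to -0.48, -2.46 and -1.44, and each still passed the test (edgeR adjusted p = 0.017, 4.1e-07 and 0.0016). Pfkfb3, which makes the allosteric activator fructose 2,6-bisphosphate, was also lower, at 25.8, 25.1, 13.1 and 13.4 CPM in cultures and 46.3 and 44.4 CPM in whole DG (log2 difference -1.23 ± 0.30, edgeR adjusted p = 0.0056).

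Of the remaining members of upper glycolysis, Aldoa and Tpi1 were lower in cultures and Gpi1 was not called. Aldoa, the main aldolase, averaged 956 ± 92.5 CPM in cultures and 1955 ± 31.4 CPM in whole DG (SD, n = 4 and 2; log2 difference -1.03 ± 0.13, edgeR adjusted p = 1.2e-04). Tpi1, triosephosphate isomerase, averaged 396 ± 26 CPM in cultures and 555 ± 23.7 CPM in whole DG (SD, n = 4 and 2), a log2 difference of -0.49 ± 0.12 (edgeR adjusted p = 0.0053, and 0.056 without whole DG F1). Gpi1, glucose 6-phosphate isomerase, averaged 672 ± 67.5 CPM in cultures and 554 ± 29.3 CPM in whole DG (SD, n = 4 and 2). Gpi1 did not pass the test (log2 difference 0.28 ± 0.14, edgeR adjusted p = 0.095).

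In lower glycolysis the enolase isozymes moved in opposite directions. Eno1, the enolase of most proliferating and glial cells, had 3204, 3101, 3258 and 3922 CPM in cultures, against 667 and 606 CPM in whole DG. Eno2, the neuronal enolase, had 2.06, 1.91, 3.34 and 1.27 CPM in cultures, against 761 and 765 CPM in whole DG. Eno1 rose by 2.40 ± 0.16 and Eno2 fell by 8.47 ± 0.27 in log2 (edgeR adjusted p = 3.5e-06 and 1.1e-07). Eno2 fell the most of the 33 members: 95 counts in 4 cultures stood against 24429 in 2 whole DGs. Per length, Eno1 made up 99.9% ± 0.033 of both enolases in cultures and 42.2% ± 1.7 in whole DG (SD, n = 4 and 2).

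Pkm, the pyruvate kinase gene whose splice forms M1 and M2 are not separated in a gene table, had 3443, 3687, 3994 and 5507 CPM in cultures, against 1427 and 1347 CPM in whole DG. It was the most abundant member per length in cultures, at 831 CPM per kilobase of exon, and rose by 1.58 ± 0.21 in log2 (edgeR adjusted p = 2.0e-04). With length and GC trends removed, the rises of Eno1 and Pkm were larger, at 3.01 and 2.18 (edgeR adjusted p = 1.5e-06 and 3.9e-05). Pgam1, phosphoglycerate mutase, averaged 435 ± 23 CPM in cultures and 301 ± 30.4 CPM in whole DG (SD, n = 4 and 2; log2 difference 0.53 ± 0.13, edgeR adjusted p = 0.0047, and 0.067 without whole DG M2). Bpgm, which makes 2,3-bisphosphoglycerate, was lower, at 27.0 ± 3.1 CPM in cultures and 47.4 ± 0.98 CPM in whole DG (SD, n = 4 and 2; log2 difference -0.81 ± 0.15, edgeR adjusted p = 0.0014). Pgk1, the first ATP-forming step, did not pass the test, with 404 ± 27.1 CPM in cultures and 342 ± 32.2 CPM in whole DG (SD, n = 4 and 2; log2 difference 0.24 ± 0.13, edgeR adjusted p = 0.12).

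Gapdh, the dehydrogenase often used as a loading control, had 133, 142, 115 and 148 CPM in cultures, against 124 and 117 CPM in whole DG. Its groups overlapped (log2 difference 0.16 ± 0.14, edgeR adjusted p = 0.31), but these counts are a small part of what its sequence attracted. Annotated copies of Gapdh, 154 in the table and mostly annotated as pseudogenes, held 93.6% to 94.3% of the summed counts of gene and copies in the 6 libraries. With the copies added, the sum was 2304 ± 285 CPM in cultures and 1884 ± 77.3 CPM in whole DG (SD, n = 4 and 2), with a log2 difference of 0.29 ± 0.15 that did not pass the test (edgeR adjusted p = 0.10). In the single-cell table Gapdh was the most abundant of the 33 members. The copy shares were 28.1% to 34.0% for Mpc1, 11.4% to 12.2% for Eno1, 8.53% to 12.9% for Pgam1 and 4.17% to 13.1% for Pgk1, and at most 1.72% for the other members that have copies. Adding them left 13 members higher and 13 lower, and the log2 differences of Eno1 (2.40), Ldha (2.80) and Mpc1 (1.12) were within 0.04 of those of the genes alone. The log2 difference of Pgk1, not called either way, fell from 0.24 to 0.12, and that of Pgam1 from 0.53 to 0.48.

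**Figure D3:**
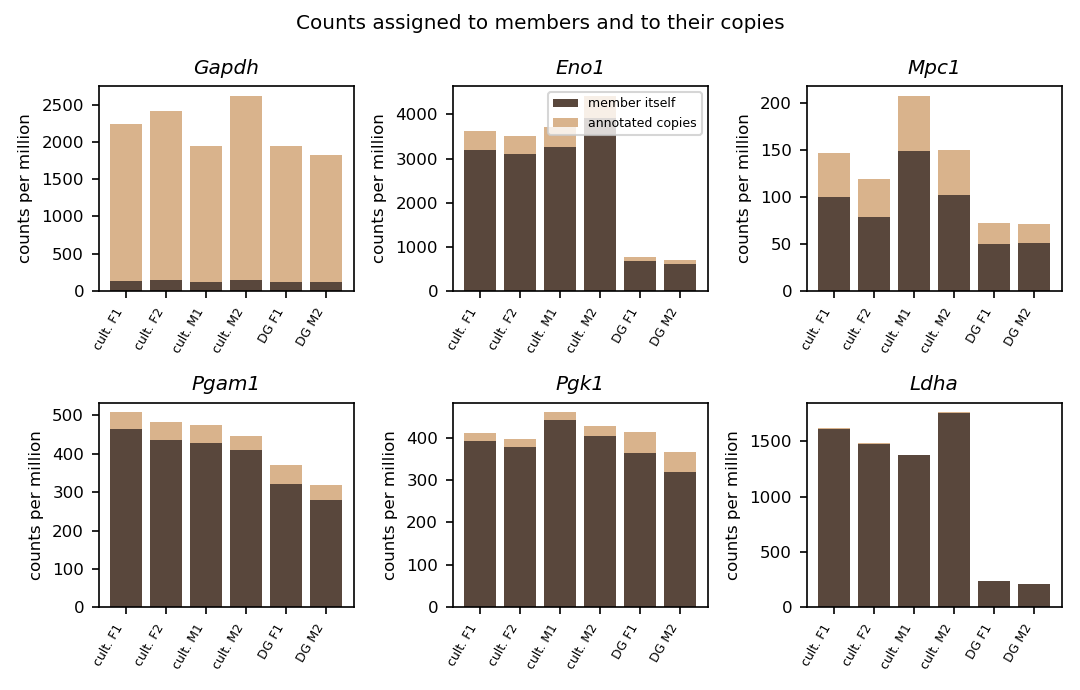
CPM of 6 members (dark) and of their annotated copies (light), stacked, in each culture and whole DG library. Gapdh is the one whose copies outweigh it, with 93.6% to 94.3% of the sum, and Eno1 and Ldha stand well above whole DG in all 4 cultures with or without copies.

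Among lactate genes, Ldha and Slc16a1 rose and the other 2 did not pass the test. Ldha, the subunit that favours reduction of pyruvate to lactate, had 1611, 1476, 1372 and 1752 CPM in cultures, against 233 and 213 CPM in whole DG. Every culture was above both tissues, with a log2 difference of 2.80 ± 0.16 (edgeR adjusted p = 1.6e-06). Ldhb, the subunit of oxidative tissues, had 312, 441, 407 and 643 CPM in cultures, against 299 and 281 CPM in whole DG. It did not pass the test (log2 difference 0.63 ± 0.26, edgeR adjusted p = 0.054), and passed it without culture F1, with whole DG thinned to culture depth, under a stricter low-count filter and with upper quartile factors (adjusted p = 0.015, 0.047, 0.042 and 0.022). Ldha made up 62.6% ± 6.1 of both subunits per length in cultures and 26.7% ± 0.42 in whole DG (SD, n = 4 and 2).

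The monocarboxylate transporters carry lactate and pyruvate across the membrane. Slc16a1 (MCT1) had 65.4, 65.2, 76.2 and 54.3 CPM in cultures, against 28.4 and 23.7 CPM in whole DG, and rose by 1.32 ± 0.18 in log2 (edgeR adjusted p = 2.0e-04). Slc16a3 (MCT4), the lactate exporter of strongly glycolytic cells, was the scarcest member in both groups per length, with 0.49, 0.26, 1.15 and 0.19 CPM in cultures and 1.22 and 0.67 CPM in whole DG. It rested on 23 counts over 4 cultures and 30 over 2 whole DGs and did not pass the test (log2 difference -0.85 ± 0.69, edgeR adjusted p = 0.29).

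At the entry of pyruvate into mitochondria, the 2 subunits of the carrier moved in opposite directions. Mpc1 had 99.9, 78.7, 148 and 101 CPM in cultures, against 49.7 and 50.9 CPM in whole DG (log2 difference 1.09 ± 0.24, edgeR adjusted p = 0.0034). Mpc2 had 52.1, 65.8, 54.1 and 56.3 CPM in cultures, against 89.8 and 88.9 CPM in whole DG (log2 difference -0.65 ± 0.13, edgeR adjusted p = 0.0024). Pdk1, the kinase that switches pyruvate dehydrogenase off, was well below tissue in every culture, at 8.42, 7.01, 13.1 and 9.16 CPM in cultures and 64.9 and 64.6 CPM in whole DG (log2 difference -2.79 ± 0.23, edgeR adjusted p = 1.1e-05). Pdha1, the catalytic alpha subunit that Pdk1 phosphorylates, had 332, 302, 433 and 343 CPM in cultures, against 249.9 and 213 CPM in whole DG. The rise of Pdha1 (0.60 ± 0.17 in log2, edgeR adjusted p = 0.012) and of the beta subunit Pdhb (0.41 ± 0.13, edgeR adjusted p = 0.016) did not hold without whole DG M2 (adjusted p = 0.11 and 0.13), nor that of Pdhb without whole DG F1 (adjusted p = 0.056). Pdhb averaged 190.0 ± 14.9 CPM in cultures and 143 ± 8.76 CPM in whole DG (SD, n = 4 and 2).

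The pentose phosphate pathway held the largest rises. G6pdx, glucose 6-phosphate dehydrogenase and the entry step, had 212, 219.8, 184 and 238 CPM in cultures, against 25.6 and 28.1 CPM in whole DG (log2 difference 2.99 ± 0.16, edgeR adjusted p = 1.1e-06). Pgls, the lactonase that follows, had 152, 157, 121 and 169 CPM in cultures, against 15.98 and 18.1 CPM in whole DG (log2 difference 3.13 ± 0.19, edgeR adjusted p = 2.0e-06). Pgd, the second NADPH-forming step, had 134, 127, 116 and 159 CPM in cultures, against 33.4 and 33.5 CPM in whole DG (log2 difference 2.00 ± 0.16, edgeR adjusted p = 1.1e-05). These 3 members of the oxidative branch lay above tissue in every culture. H6pd, which catalyses the first oxidative steps in the endoplasmic reticulum and was named after its values were seen, was lower in every culture, at 5.46 ± 0.75 CPM in cultures and 10.2 ± 0.67 CPM in whole DG (SD, n = 4 and 2; log2 difference -0.90 ± 0.23, edgeR adjusted p = 0.0068). In the non-oxidative branch, Tkt, transketolase, had 361, 458, 327 and 379 CPM in cultures, against 132 and 130.4 CPM in whole DG (log2 difference 1.54 ± 0.16, edgeR adjusted p = 5.1e-05), and Taldo1, transaldolase, averaged 200.2 ± 23.4 CPM in cultures and 84.4 ± 7.63 CPM in whole DG (SD, n = 4 and 2; log2 difference 1.24 ± 0.15, edgeR adjusted p = 1.1e-04). Rpia, ribose 5-phosphate isomerase, went the other way at a low level, with 2.23, 1.99, 1.62 and 0.78 CPM in cultures and 9.86 and 11.8 CPM in whole DG (log2 difference -2.70 ± 0.37, edgeR adjusted p = 2.1e-04).

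**Figure D4:**
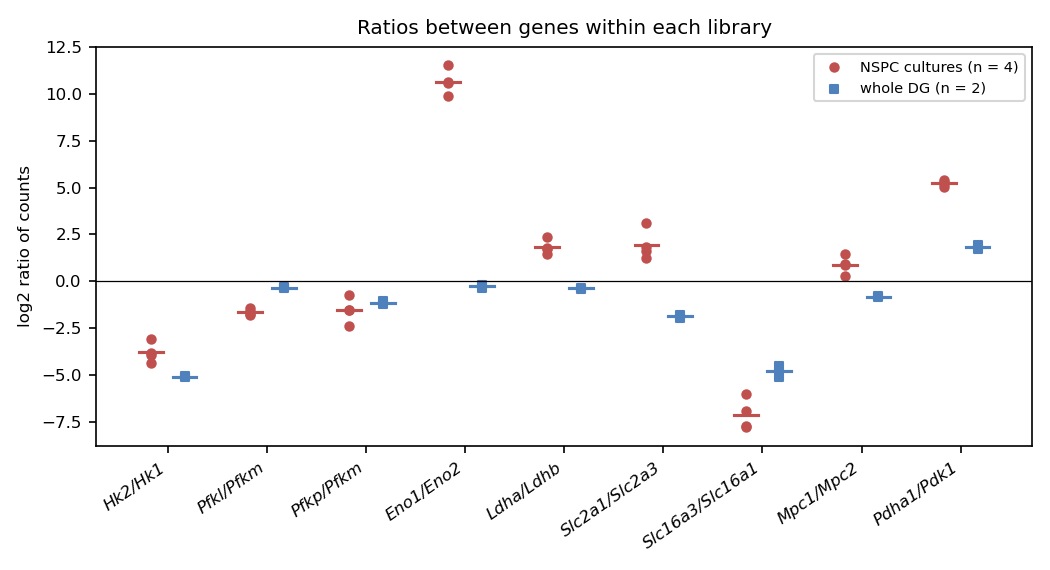
Log2 ratio of counts between paired genes within each library, cultures (circles, left) and whole DG (squares, right), with group means as lines. The largest gap is that of Eno1 to Eno2, at 10.7 in cultures and -0.26 in whole DG, and Pfkp to Pfkm is the ratio whose groups overlap.

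Ratios within a library do not depend on the scaling between libraries. Of 9 ratios, 8 did not overlap between the groups. The CPM of single genes did not overlap in 83.6% of all genes tested, and the share over other gene pairs was not taken. The mean log2 ratio of Eno1 to Eno2 was 10.7 ± 0.67 in cultures and -0.26 ± 0.10 in whole DG, and that of Ldha to Ldhb 1.83 ± 0.39 in cultures and -0.38 ± 0.03 in whole DG (SD, n = 4 and 2). Pdha1 to its kinase Pdk1 stood at 5.24 ± 0.16 in cultures and 1.83 ± 0.16 in whole DG, and Mpc1 to Mpc2 at 0.87 ± 0.49 in cultures and -0.83 ± 0.03 in whole DG (SD, n = 4 and 2). Hk2 to Hk1 differed by 1.30, Pfkl to Pfkm by -1.29, Slc2a1 to Slc2a3 by 3.82, Slc16a3 to Slc16a1 by -2.32 and Pfkp to Pfkm by -0.41 (log2, cultures minus whole DG). With 4 cultures against 2 tissues, the two-sided exact permutation test cannot go below p = 0.13, which was the p of those 8 ratios (adjusted p = 0.15 over 9), so that no ratio could pass 0.05.

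Other genes of the pathway were set beside the members. Of 56 such genes, 49 could be tested. Over all genes tested, 35.6% were higher and 41.7% lower in cultures. Of the 49, 16 were higher, 24 lower and 9 not called (edgeR, adjusted p below 0.05). Their median log2 difference was -0.85, against -0.13 over all genes tested. The most abundant higher ones were Bsg, the chaperone of the lactate transporters (394 ± 17.3 CPM in cultures, 319 ± 23.8 CPM in whole DG), and Dld, the shared dehydrogenase subunit of the pyruvate dehydrogenase complex (203 ± 25.6 CPM in cultures, 134 ± 4.0 CPM in whole DG). Me1, the cytosolic NADP-linked malic enzyme, followed with 201 ± 38.8 CPM in cultures and 55.7 ± 6.37 CPM in whole DG, and Pgm2, a phosphoglucomutase, with 126 ± 20.5 CPM in cultures and 66.7 ± 1.4 CPM in whole DG (SD, n = 4 and 2). Among the lower ones, Slc2a13, a proton-coupled myo-inositol transporter, had 0.396 ± 0.573 CPM in cultures and 203 ± 11.3 CPM in whole DG, and Pdk2, another pyruvate dehydrogenase kinase, 28.7 ± 9.97 CPM in cultures and 114 ± 9.12 CPM in whole DG (SD, n = 4 and 2). Pdp1, the phosphatase that opposes these kinases, was also lower (12.4 ± 6.02 CPM in cultures, 108 ± 3.21 CPM in whole DG). So was Tigar, a fructose 2,6-bisphosphatase (20.1 ± 3.15 CPM in cultures, 36.3 ± 2.86 CPM in whole DG; SD, n = 4 and 2). The remaining kinases were named after their values were seen. Pdk3, the most abundant of these kinases in cultures, was not called (36.8 ± 1.92 CPM in cultures, 32.8 ± 4.12 CPM in whole DG). Pdk4 was lower (2.76 ± 1.04 CPM in cultures, 24.5 ± 3.2 CPM in whole DG; SD, n = 4 and 2).

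Regulators of glycolysis were set beside all genes tested, of which 35.6% were higher and 41.7% lower in cultures. Of 12 such regulators, 6 were higher, 4 lower and 2 not called (edgeR, adjusted p below 0.05). Myc, a transcription factor that drives growth and glycolytic genes, had the largest rise, with 153 ± 13.3 CPM in cultures and 5.4 ± 1.29 CPM in whole DG (SD, n = 4 and 2; log2 difference 4.82 ± 0.21, edgeR adjusted p = 4.0e-07). Mlxipl, the glucose-responsive factor ChREBP, had the largest fall, at 0.166 ± 0.146 CPM in cultures and 2.85 ± 0.16 CPM in whole DG (SD, n = 4 and 2; log2 difference -4.08 ± 0.66, edgeR adjusted p = 5.9e-04). A further 3 were chosen after their values were seen. Hif1a, a hypoxia-inducible factor alpha subunit, had 307 ± 24.4 CPM in cultures and 94.3 ± 4.2 CPM in whole DG. Epas1, another such alpha subunit, went the other way, with 31.3 ± 14.1 CPM in cultures and 107 ± 13.8 CPM in whole DG. Nfe2l2 (NRF2), a known activator of pentose phosphate genes, had 185 ± 9.67 CPM in cultures and 13.6 ± 0.22 CPM in whole DG (SD, n = 4 and 2). Their log2 differences were 1.70 ± 0.13, -1.78 ± 0.38 and 3.77 ± 0.14 (edgeR adjusted p = 8.7e-06, 0.0027 and 2.1e-07).

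Among the cultures the members were about as even as other genes: the median coefficient of variation was 12.2% over the 29 members at 10 CPM or more and 14.4% over 9764 genes at that level. Between male and female cultures, edgeR called 4 of 15140 genes (0.0264%) and 0 of the 32 members tested, of which 3 had an unadjusted p below 0.05, as had 942 of the 15140 genes (6.22%), and DESeq2 called 53 genes and again 0 members. Pfkfb3 was the one with the smallest p, at 13.1 and 13.4 CPM in male cultures and 25.8 and 25.1 CPM in female cultures. Its sexes did not overlap (log2 difference -0.94 ± 0.22), but it did not pass the correction (edgeR adjusted p = 0.75). Slc2a3 (-0.75 ± 0.29) and Hk1 (0.35 ± 0.14) did not pass either (edgeR adjusted p = 0.78 each). In the interaction of sex and group, edgeR called 0 of 19100 genes (0%), with 338 genes and 1 member (Pfkfb3) at an unadjusted p below 0.05, and DESeq2 called 1 gene that was no member.

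In single cells, the 14912 cells of the mixed library carried 62412600 unique molecular identifiers (UMIs), and the members took 87.6 of every 10000. Their order was led by Gapdh (21.3 UMIs per 10000), Pkm (11.5), Ldha (7.48), Eno1 (6.02) and Aldoa (5.19). Among isozymes, Eno2 had 30 UMIs against 37592 of Eno1, Slc2a3 152 against 1312 of Slc2a1, and Ldha was 73.8% of the UMIs of both lactate dehydrogenase subunits. Pfkl was 33.1% of phosphofructokinase UMIs, and its share of counts per length in bulk cultures was 12.9%, on a different scale. Hk2 had 401 and Pdk1 251 UMIs over all cells.

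The authors' clusters 0 to 5 held 3925, 3297, 3260, 1910, 1428 and 1092 cells. One library gives no replicate, so no test was made, and exact Poisson intervals (95%) cover counting error only. The summed level of the members was highest in cluster 0, at 95.2 UMIs per 10000 (94.7 to 95.7), and lowest in cluster 4, at 81.1 (80.5 to 81.8). Clusters 1, 2, 3 and 5 lay between, at 85.0, 84.8, 89.0 and 87.5. Division markers were most abundant in cluster 4, at 48.4 UMIs per 10000, and stood at 2.67, 13.6, 23.5, 6.95 and 2.15 in clusters 0, 1, 2, 3 and 5. Amino acid stress genes stood at 18.3 in cluster 5 and at 9.48 to 11.2 in the others, and the median depth of a cell ranged from 3431 UMIs in cluster 1 to 5270.5 in cluster 4. The median mitochondrial share was highest in cluster 0, at 11.6% against 9.74% to 10.6% elsewhere, and cluster 0 held 48 of the 64 cells above 20%. Without those cells its summed level was 95.3 UMIs per 10000. The part of division, stress genes and depth in the levels of the members was not tested.

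Differences between clusters were modest for most members at 0.5 or more UMIs per 10000. Of these 18 members, 4 differed at least 1.5-fold between their highest and lowest cluster. The share over 2817 genes at that level was 26.6%, so the number of members is close to the background. The median ratio of highest to lowest cluster was 1.22 for the members and 1.32 for all those genes. The other 14 ranged from 1.06-fold for Pgls to 1.40-fold for Pkm, with Gapdh at 1.14-fold and Ldha at 1.13-fold. Members below 0.5 UMIs per 10000 were left out of these counts. Their ratios ran from 1.25-fold for Bpgm to 12.1-fold for Slc16a3, which had 77 UMIs over all cells. Cluster 0 was highest for 10 of the 18 members (55.6%) and for 20.9% of the 2817 genes, and cluster 4 was lowest for 9 members (50%) and for 18% of the genes. Cluster 5 was highest for 5 members (27.8%) and for 18.2% of the genes, and it was lowest for 6 members (33.3%), no more often than for the genes (38.3%).

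Cluster 5 had the highest summed pentose phosphate level and the lowest summed lactate gene level. Its pentose phosphate members summed to 12.7 UMIs per 10000 (12.3 to 12.99), with the other clusters between 10.1 in cluster 4 and 11.03 in cluster 3. Taldo1 stood at 3.07 in cluster 5 and at 1.85 to 2.15 elsewhere, Pgd at 0.864 in cluster 5 and at 0.474 to 0.625 elsewhere, and the scarcer G6pdx at 0.523 in cluster 5 and at 0.291 to 0.351 elsewhere, each as UMIs per 10000. The intervals of these 3 genes in cluster 5 did not overlap those of any other cluster. The other pentose phosphate members did not set cluster 5 apart in this way: Tkt stood at 3.27 (3.11 to 3.44) there and at 3.12 (3.00 to 3.25) in cluster 3, Pgls at 4.87 there and at 4.61 to 4.76 elsewhere, and Rpia at 0.068 there and at 0.059 to 0.118 elsewhere. Lactate members summed to 8.96 (8.68 to 9.23) in cluster 5 and to 9.69 to 11.3 elsewhere. Tpi1 was lowest in cluster 5, at 1.72 against 2.92 UMIs per 10000 in cluster 0, and so was Ldhb, at 2.00 against 3.47. Cluster 0 led in the summed level of upper glycolysis, with 13.7 UMIs per 10000 (13.5 to 13.9) against 10.5 to 11.7 in the other clusters. Most of that sum was Aldoa, Gpi1 and Tpi1, at 6.02, 3.79 and 2.92 in cluster 0. The scarcer Hk1, Pfkl and Pfkm were also highest in cluster 0. Hk2 was lowest there, at 0.042, and Pfkp and Pfkfb3 were highest in clusters 5 and 1. These clusters were drawn by the authors on the same cells, with these genes among those that could define them.

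**Figure D5:**
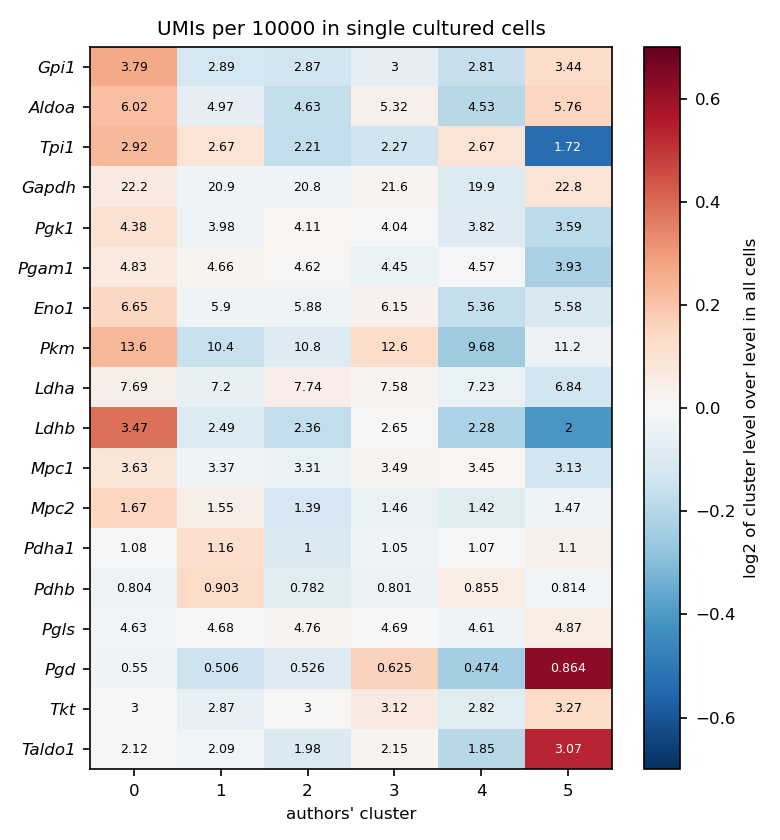
UMIs per 10000 (numbers) of the 18 members at 0.5 or more, in the authors' clusters 0 to 5 of single cultured cells, coloured by log2 of the cluster's level over that of all cells. Pgd and Taldo1 are highest in cluster 5, and Ldhb is highest in cluster 0 and lowest in cluster 5.

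Positions of the members, on GRCm38 with GENCODE M21, bear on how firmly single genes can be read. Of the 33 members, 19 overlap another annotated gene, among them G6pdx (with Ikbkg), Pgls (Fam129c), Pfkp (Pitrm1), Pfkm (Senp1) and Pdha1 (Map3k15), with the authors' use of strand not given in the sources used here. In 15 members, 5% or more of the 50-base stretches of their transcripts also occur in another gene, up to 72.2% in Eno1 and 68.0% in Pgk1, while Eno2 shared 0.25% and Pfkl 0.054%.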

How the data were processed

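Gene expression was measured in 4 bulk NSPC cultures, 2 whole DGs and 1 single-cell library of cultured NSPCs. The bulk table holds raw read counts per gene as deposited by the authors. Tools named in the submitters' processing notes are HISAT2 2.0.6, CASAVA 1.8.2, featureCounts and Subread, with the human build GRCh38, although the symbols are mouse symbols; strand and multi-mapping options were not given in the sources used here. For single cells, the authors deposited natural log values (natural log of 1 plus UMIs per 10000), from Cell Ranger 3.1.0 and Seurat 3.1.0 per the submitters' processing notes. Per the labels' protocols, whole DG libraries used a directional kit and culture libraries a low-input kit, and cultures are described as separate: p-values reflect variation among 4 cultures and 2 animals.

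The test was edgeR's robust quasi-likelihood F test (version 4.0.16, R 4.3.3) with TMM scaling, filterByExpr and Benjamini-Hochberg adjusted p below 0.05 across all genes, with DESeq2 1.42.0 as an alternative. SEs were derived from the F statistic, and CPM use TMM library sizes. The interaction of sex and group used all 6 libraries, with 1 whole DG of each sex. Isozyme ratios were log2 ratios of counts plus 0.5, compared by an exact permutation test. Natural log values were turned back into UMIs, with 100% of entries within 0.01 of a whole number. Cells were not filtered and no doublet caller was run. Copies of members were annotated pseudogenes sharing 10 or more 50-base stretches, or other genes sharing 5% or more, and the alternative that adds them was chosen after seeing the data. Of 50600 table entries, 94.2% matched a GENCODE M21 symbol. Upstream windows came from RefSeq (GRCm38.p6), with 32 of 33 members matched and none for Slc2a3.

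The members, lists, tests and naming rule were chosen with earlier results of these data known. Values per library are given for the 8 largest called rises and falls, for both genes of each ratio and for Pfkfb3, G6pdx, Pdk1, Pkm and Gapdh. Of the other lists, the 4 most abundant called genes each way and the regulators with the largest rise and fall were named. The tests were also run on simulated counts, and the outcome is not reported here. Intervals cover counting error only.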

Additional observations from a re-analysis of the deposited data

How the results depend on the processing

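Of the 32 members with a value in all 17 alternatives between cultures and whole DG, 17 kept their direction and their side of the threshold in all of them, as did Slc16a3 in the 13 that left it in. Asking for a change above 2-fold left 9 members higher and 8 lower (51.5% of the members), with 3671 genes higher and 5772 lower (52.2% of the genes). Members called numbered 23 (69.7%) without whole DG M2, where 62.8% of the genes were called, and 30 (90.9%) with upper quartile factors, where 78.2% were, which added Gpi1, Gapdh, Pgk1 and Ldhb to those higher. The sign turned for 3 members that had not passed: Slc2a1 with upper quartile factors (0.079), without culture M1 (0.050), without whole DG F1 (0.011), and in 4 libraries with (0.10) and without (0.13) a replicate block, its values without 1 library running from -0.31 to 0.050. Hk2 turned without culture F1 (-0.094, range without 1 library -0.094 to 0.23), and Pgk1 with length and GC trends removed (-0.079). Pdhb also missed the threshold with DESeq2 (adjusted p = 0.058), and Pdha1 and Pdhb did with length and GC trends removed (adjusted p = 0.28 and 0.40), while Gpi1 passed it (0.0076). The cause was not tested. Whether the numbers F1 and M2 pair cultures with tissues cannot be told. The correlation of deviations was 0.06, but it rests on 1 contrast of 2 libraries in each group, which is also female against male. With the replicate block 13 members were higher and 13 lower, as without it.

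Between male and female cultures, 53 genes were called by DESeq2 and 273 without a filter on low counts, and 3 to 81 when 1 culture was left out (81 without F1, 13 without F2), with 0 members called in all of these. The interaction gave 1 gene with DESeq2 and 6 without a filter. All 9 ratios kept their direction with other pseudocounts and without each library. Length and GC trends were not removed from the ratios or from the shares per length. In log2 those trends were -0.74 for Pfkp, -0.66 for Pfkl and -0.005 for Pfkm, and -0.76 for Hk1 and -0.19 for Hk2. The ratios among these genes therefore carry part of the trends. With the trends removed, the fitted log2 difference of Pfkp was -1.44, and that of Pfkm lay between -1.94 and -1.65 in all 17 alternatives. Pfkp then fell less than Pfkm, opposite to the direction of their ratio (-0.41). The ratio itself was not taken again without the trends. In single cells, thinned to 2000 UMIs, the summed level of cluster 0 was 95.7 UMIs per 10000, just outside its counting interval, and all 18 members kept their highest cluster above their lowest. Slc16a3, Rpia and Eno2 in cultures are limited by depth, at 23, 75 and 95 counts.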
